A study of Mus musculus with 6 samples.

Results

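The genes described here are 55 genes of DNA damage signalling and break repair, measured in mouse embryonic stem cells (mESC) with and without the Tet genes. They are a named list of ATM and ATR pathway, homologous recombination, Fanconi and end-joining genes, chosen by symbol and not by their values. All 55 were found among the 22380 gene identifiers of the series.

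RNA was sequenced in 6 libraries of mESC, 3 *Ctrl* and 3 *Tet iTKO*. The paper states for its experiments in general that each genotype was represented by 3 mESC populations, each of a different embryo. For these RNA data it names 3 independent experiments, and each library is called a line here. *Ctrl* lines were CreERT2 wt/ki with Gt(ROSA)26Sor<tm1Ytchn>/J wt/ki, an H2B-EGFP reporter that Cre recombination turns on, and *Tet iTKO* lines carried the same alleles and Tet1/2/3 fl/fl. Both groups therefore had Cre-ERT2 and both were treated with 1 µM 4-hydroxytamoxifen for 2.5 days and kept for 4 more days. Cells were grown in 2i on fibroblast feeders and sorted at day 6.5 as live CD326+ GFP+ Thy1.2- cells, that is, as cells in which Cre had acted and which lacked a marker of the feeders.

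Values are normalized counts per gene, the read counts after division by a factor for library size, rounded to whole numbers by the authors. Groups were compared with limma, a linear model across all genes, on log2(normalized count + 1), for the 10524 genes with a mean of at least 10. A gene is said to rise or fall where its p after Benjamini-Hochberg adjustment over these genes was under 0.05, and log2 fold changes are those of *Tet iTKO* over *Ctrl*. Because the RNA is from bulk samples, fewer cells of a type and less RNA per cell cannot be told apart.

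A cell that breaks its DNA first senses the break and halts the cell cycle. The kinase ATM acts mainly at double-strand breaks and ATR at single-stranded DNA and stalled replication forks, and they signal through CHEK2 and CHEK1. Breaks are then either joined end to end or resected and repaired from the sister chromatid by homologous recombination, while the Fanconi proteins unhook strands that are crosslinked. Mouse embryonic stem cells divide fast, with a short first gap phase, and rely strongly on replication-linked signalling and recombination.

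The libraries held between 3964824 and 4219665 normalized counts, from an estimated 3.66 M to 5.1 M reads on genes. The floxed exons could not be set apart in whole-gene values, so the totals of the targeted genes check the labels only in part. *Tet1* had 696, 682 and 716 normalized counts in *Ctrl* against 787, 895 and 753 in *Tet iTKO* mESC. *Tet2* had 249, 170 and 230 against 233, 268 and 211, and *Tet3* 28, 13 and 13 against 10, 3 and 3. All 8 mESC markers examined were expressed in every line, but 6 of them, or 75.0%, differed between the groups, beside 34.8% of all genes tested. *Pou5f1*, *Nanog* and *Zfp42* fell and *Esrrb*, *Klf4* and *Epcam* rose, with *Pou5f1* at 5208, 5804 and 5457 normalized counts in *Ctrl* against 4373, 4318 and 4775 in *Tet iTKO* mESC, without overlap (log2 fold change -0.29, limma adjusted p = 5.7e-06). After a correction for transcript length and GC content 1 marker, *Epcam*, was higher and 2, *Pou5f1* and *Tfcp2l1*, were lower. *Tfcp2l1* had not passed before the correction, and *Nanog*, *Zfp42*, *Esrrb* and *Klf4* no longer passed. Of 10 fibroblast markers, 5 had a mean of at least 10, and the sum over all 10 was 326 to 340 in *Ctrl* and 531 to 602 in *Tet iTKO* mESC. No marker of these 10 was at 0 in every line, *Postn* was at or under 3 in all of them, and *Col1a1*, *Col1a2* and *Col3a1* rose. *Thy1* and *Acta2* did not pass the test, with log2 fold changes of -0.19 and -0.11. Of the markers under the filter, *Lum*, *Dcn* and *Pdgfrb* had lower and *Fbn1* and *Postn* higher means in *Tet iTKO* mESC. The part of these marker changes in the values below was not tested.

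All 55 genes passed the filter on low values, and 9 of them, or 16.4%, differed between the groups, where 34.8% of all genes tested did. *Chek2*, *Blm*, *Fanca* and *Slx4* rose, and *Chek1*, *Rad1*, *Rad17*, *Eme1* and *Traip* fell. Over all genes, 16.4% rose and 18.4% fell. The median log2 fold change of the 55 genes was -0.02, with 26 above 0 and 29 below, beside a median of 0.01 over all genes tested. For 37 genes the change was within 0.25 of 0 on the log2 scale, and for 22 the 95% interval lay inside -0.5 to 0.5. At an unadjusted p under 0.05 the number was 12, or 21.8%, beside 43.6% of all genes tested. The values of *Ctrl* and *Tet iTKO* lines did not overlap for 14 of the 55 genes, or 25.5%, beside 44.1% of all genes tested. Summed over the 55 genes, the *Ctrl* lines had 13826, 13438 and 13594 normalized counts and the *Tet iTKO* lines 13631, 13631 and 13399.

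**Figure D1:**
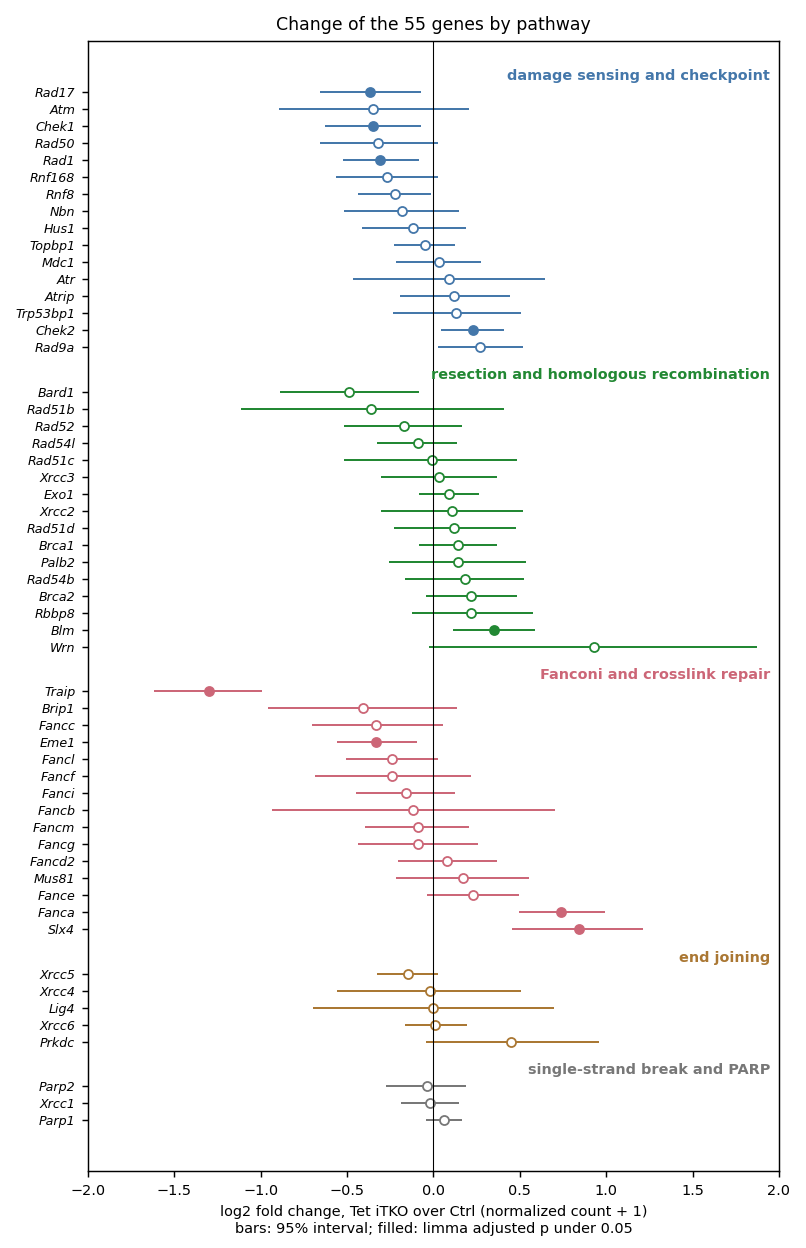
Log2 fold change of *Tet iTKO* over *Ctrl* (x axis, on log2 of normalized count + 1) for each of the 55 genes, ordered within 5 pathway groups, with 95% intervals and filled points where the limma adjusted p was under 0.05. The 9 filled points lie in 3 of the groups, *Traip* stands farthest to the left at -1.30, and the wide bar of *Wrn* belongs to a gene of few counts.

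Each of the 5 pathway groups holds few genes, and differences between them were not tested. Damage sensing and checkpoint genes had 4 of 16 past the threshold, resection and homologous recombination 1 of 16, Fanconi and crosslink repair 4 of 15, end joining 0 of 5, and single-strand break repair with the PARP enzymes 0 of 3. The highest of these shares, 25.0% and 26.7%, lie under the 34.8% of all genes. Their median log2 fold changes were -0.15, 0.11, -0.12, 0.00 and -0.02. No end-joining or single-strand break gene reached an unadjusted p under 0.05.

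The effector kinases of the checkpoint moved in opposite directions in the values as deposited. *Chek2* (ENSMUSG00000029521.3), which encodes the kinase activated by ATM, had 415, 446 and 414 normalized counts in *Ctrl* against 494, 505 and 495 in *Tet iTKO* mESC. *Chek1* (ENSMUSG00000032113.8), whose product acts below ATR at stalled forks, had 224, 193 and 233 in *Ctrl* against 150, 183 and 175 in *Tet iTKO* mESC. For both genes the groups did not overlap. *Chek2* rose by 0.23 on the log2 scale (SE 0.09, limma adjusted p = 0.037) and *Chek1* fell by 0.35 (SE 0.13, limma adjusted p = 0.036). The log2 ratio of *Chek2* to *Chek1* was 0.89, 1.20 and 0.83 in *Ctrl* against 1.71, 1.46 and 1.49 in the *Tet iTKO* lines. This ratio was formed after the values were seen and was not tested.

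Both calls lay near the threshold, and that of *Chek1* was lost after a correction for transcript length and GC content (log2 fold change -0.21, limma adjusted p = 0.26), which *Chek2* passed. With each line left out in turn, the adjusted p of *Chek2* ran from 0.038 to 0.11 and was under 0.05 only without *Ctrl* replicate 2. That of *Chek1* ran from 0.024 to 0.16 and was under 0.05 only without *Ctrl* replicate 2 or *Tet iTKO* replicate 2.

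The kinases above them did not pass the test. *Atm* had 61, 49 and 50 normalized counts in *Ctrl* against 44, 37 and 44 in *Tet iTKO* mESC, with a log2 fold change of -0.35 with a 95% interval from -0.89 to 0.20. *Atr* had 65, 41 and 41 against 56, 58 and 41. The *Atm* groups did not overlap and the *Atr* groups did, and both genes had so few counts that a moderate change was not detectable at this depth. *Atrip*, the partner that brings ATR to single-stranded DNA, had a log2 fold change of 0.12, and *Topbp1*, an activator of ATR, one of -0.05.

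The clamp that marks damaged DNA for ATR and its loader showed values in both directions. *Rad17* (ENSMUSG00000021635.6) encodes the loader, and had 185, 167 and 192 normalized counts in *Ctrl* against 134, 150 and 137 in *Tet iTKO* mESC, with no overlap. It fell by 0.37 on the log2 scale (SE 0.14, limma adjusted p = 0.042). *Rad1* (ENSMUSG00000022248.8), a subunit of the clamp, had 435, 402 and 339 against 286, 306 and 356, so that the highest *Tet iTKO* line lay above the lowest *Ctrl* line. It fell by 0.31 (SE 0.11, limma adjusted p = 0.022). The other subunits did not pass the test. *Rad9a* had 224, 229 and 214 normalized counts in *Ctrl* against 305, 246 and 256 in *Tet iTKO* mESC, without overlap (limma adjusted p = 0.075), and passed only with quantile normalization (limma adjusted p = 0.047). *Hus1* had 195, 145 and 191 against 144, 175 and 167. The log2 ratio of *Rad1* to *Rad9a*, likewise formed after the values were seen, was 0.66 to 0.95 in *Ctrl* and -0.09 to 0.47 in *Tet iTKO* lines.

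The calls on *Rad17* and *Rad1* also changed when single lines were left out and when the transcripts' GC content and length were corrected for. After a correction of each library for these properties, neither passed, with log2 fold changes of -0.06 for *Rad17* (limma adjusted p = 0.79) and -0.23 for *Rad1* (limma adjusted p = 0.097). *Rad17* had an adjusted p between 0.040 and 0.12 with each line left out, under 0.05 only without *Ctrl* replicate 2, and *Rad1* between 0.0046 and 0.14, under 0.05 only without *Ctrl* replicate 3 or *Tet iTKO* replicate 3. *Rad17* shares exon sequence on the opposite strand with *Ak6*, which fell by 0.55 on the log2 scale (limma adjusted p = 0.0027). The libraries do not mark strand, so reads of these 2 genes cannot be told apart where they overlap. The same holds for *Rad9a* and *Ppp1ca*, and for the other overlaps named below.

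Of the genes that gather repair factors on chromatin around a break, none passed the test. *Rnf8*, a ubiquitin ligase of this step, had 339, 346 and 378 normalized counts in *Ctrl* against 322, 303 and 285 in *Tet iTKO* mESC. Its groups did not overlap, and its log2 fold change was -0.22 (SE 0.10, limma adjusted p = 0.086). *Rnf8* passed only with the GC content and length correction (-0.37, limma adjusted p = 0.0047). The ligase *Rnf168* had a log2 fold change of -0.27, and the chromatin readers *Mdc1* and *Trp53bp1* had 0.03 and 0.13. *Rad50* and *Nbn*, subunits of the complex that binds broken ends, had -0.32 and -0.18.

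Among the genes of resection and homologous recombination, 1 of 16 passed the test. *Blm* (ENSMUSG00000030528.6), a helicase that dissolves recombination intermediates, had 247, 209 and 236 normalized counts in *Ctrl* against 299, 281 and 302 in *Tet iTKO* mESC. Every *Tet iTKO* line was above every *Ctrl* line, and *Blm* rose by 0.35 on the log2 scale (SE 0.11, limma adjusted p = 0.014). Its adjusted p was 0.078 without *Ctrl* replicate 2 and 0.055 without *Tet iTKO* replicate 3, and under 0.05 without each of the other 4 lines. The related helicase *Wrn* had 5, 24 and 23 against 28, 33 and 24. The low first *Ctrl* line made its log2 fold change of 0.93 uncertain, with a 95% interval from -0.02 to 1.87.

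The genes at the core of recombination did not pass the test. *Brca1*, which promotes resection, had 266, 322 and 279 normalized counts in *Ctrl* against 343, 304 and 307 in *Tet iTKO* mESC (log2 fold change 0.14, 95% interval -0.08 to 0.36). *Brca2*, which acts after resection, had 180, 184 and 204 against 195, 232 and 236 (log2 fold change 0.22, 95% interval -0.04 to 0.48). Their values overlapped between the groups. *Bard1*, the obligate partner of BRCA1, had 139, 97 and 107 in *Ctrl* against 83, 95 and 66 in *Tet iTKO* mESC. These groups did not overlap, but the log2 fold change of -0.49 just missed the threshold (SE 0.20, limma adjusted p = 0.051). *Bard1* passed in 8 of 16 alternative fits, among them those without *Ctrl* replicate 2 (adjusted p = 0.036) and without *Tet iTKO* replicate 2 (adjusted p = 0.037).

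*Palb2*, which links BRCA1 and BRCA2, and the resection genes *Exo1* and *Rbbp8* had log2 fold changes of 0.14, 0.09 and 0.22. The recombination genes *Rad51b*, *Rad51c*, *Rad51d*, *Xrcc2* and *Xrcc3* ran from -0.36 to 0.12, and *Rad51b* had only 20 to 40 normalized counts per line. *Rad52*, *Rad54l* and *Rad54b*, which act in strand annealing or invasion, had -0.17, -0.09 and 0.18. None of these 11 genes passed the test in any alternative fit that held it, *Rad51b* being absent from the fit of genes with a mean of at least 50.

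Among the genes that passed the test, the largest changes were those of *Traip*, *Slx4* and *Fanca*, which act on crosslinks and stalled forks. *Traip* (ENSMUSG00000032586.4), a ubiquitin ligase that starts the repair of crosslinks at converging replication forks, had 249, 239 and 259 normalized counts in *Ctrl* against 78, 115 and 112 in *Tet iTKO* mESC. The *Tet iTKO* mean was 40.8% of the *Ctrl* mean, with a log2 fold change of -1.30 (SE 0.15, limma adjusted p = 1.3e-08). No *Tet iTKO* line came near the *Ctrl* range, and the change was -1.40 to -1.13 with each line left out.

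*Slx4* (ENSMUSG00000039738.9), the scaffold that holds the nucleases of crosslink repair, had 69, 70 and 90 normalized counts in *Ctrl* against 123, 129 and 159 in *Tet iTKO* mESC. The *Tet iTKO* mean was 179% of the *Ctrl* mean, and *Slx4* rose by 0.84 on the log2 scale (SE 0.19, limma adjusted p = 0.00047). *Fanca* (ENSMUSG00000032815.9), a subunit of the Fanconi core complex, had 180, 177 and 162 against 293, 285 and 293. Its *Tet iTKO* mean was 168% of the *Ctrl* mean, and it rose by 0.74 (SE 0.12, limma adjusted p = 5.1e-06). Neither gene had overlapping groups, and *Slx4*, *Fanca* and *Traip* passed in all 16 alternative fits. *Fanca* shares exon sequence on the opposite strand with *Zfp276*, whose mean was 39.0 in *Ctrl* and 50.0 in *Tet iTKO* mESC (limma adjusted p = 0.34).

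*Eme1* (ENSMUSG00000039055.4), the partner of the nuclease MUS81, had 315, 338 and 296 normalized counts in *Ctrl* against 240, 282 and 235 in *Tet iTKO* mESC, with no overlap. It fell by 0.33 on the log2 scale (SE 0.11, limma adjusted p = 0.019). Leaving out *Ctrl* replicate 2, *Tet iTKO* replicate 1 or *Tet iTKO* replicate 3 raised the adjusted p to 0.094, 0.068 and 0.091. *Mus81* itself had 98, 81 and 88 against 104, 92 and 105, a log2 fold change of 0.17 that did not pass the test. The log2 ratio of *Eme1* to *Mus81*, formed after the values were seen, was 1.67 to 2.05 in *Ctrl* and 1.15 to 1.61 in *Tet iTKO* lines. *Eme1* overlaps *Lrrc59*, which had a log2 fold change of 0.04, and *Mrpl27*, which fell by 0.49 (limma adjusted p = 0.019), both on the opposite strand.

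**Figure D2:**
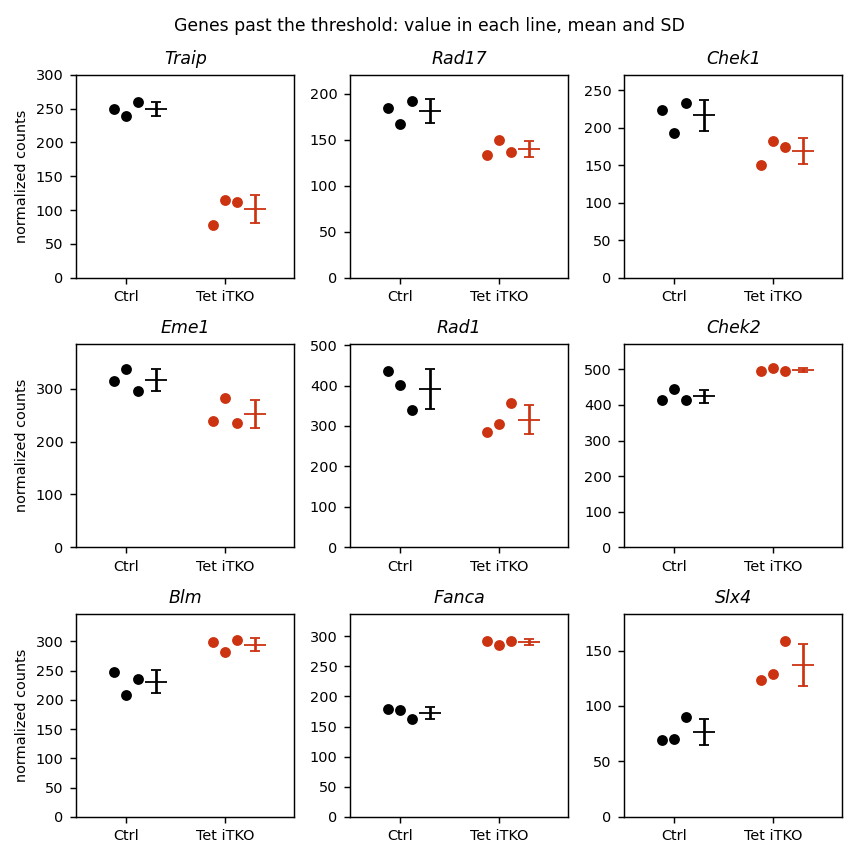
Normalized counts (y axis, from 0) of the 9 genes past the threshold in each of the 3 *Ctrl* (black) and 3 *Tet iTKO* (red) lines, as points, with the mean and SD at the right of each group. The groups are apart in 8 panels, and in the panel of *Rad1* the highest *Tet iTKO* line, at 356, lies above the lowest *Ctrl* line, at 339.

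The rest of the Fanconi genes did not pass the test. The other core complex genes *Fancb*, *Fancc*, *Fance*, *Fancf*, *Fancg*, *Fancl* and *Fancm* had log2 fold changes from -0.33 to 0.23. Among them *Fancl*, which encodes the ubiquitin ligase of the complex, had 198, 258 and 216 normalized counts in *Ctrl* against 193, 188 and 185 in *Tet iTKO* mESC, without overlap (limma adjusted p = 0.15). *Fancd2* and *Fanci*, which that ligase modifies, had log2 fold changes of 0.08 and -0.16, and the helicase *Brip1* had -0.41 at only 35 to 68 normalized counts per line. *Fanci* shares exon sequence on the opposite strand with *Polg*, which rose by 0.46 (limma adjusted p = 0.0033). *Fance* passed in 1 of the 16 alternative fits, without *Ctrl* replicate 3 (log2 fold change 0.42, limma adjusted p = 0.011).

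To show the start sites of genes with a large fall and a large rise that passed in every fit, the 250 bases before the annotated start of *Traip* and *Fanca* are given from RefSeq on GRCm38.p6, 5′ to 3′ along the gene's strand. Capitals mark CG dinucleotides, the sites of DNA methylation on which the TET enzymes act. The *Traip* stretch is chr9:107950713-107950962 on the plus strand and that of *Fanca* chr8:123318577-123318826 on the minus strand.
Traip: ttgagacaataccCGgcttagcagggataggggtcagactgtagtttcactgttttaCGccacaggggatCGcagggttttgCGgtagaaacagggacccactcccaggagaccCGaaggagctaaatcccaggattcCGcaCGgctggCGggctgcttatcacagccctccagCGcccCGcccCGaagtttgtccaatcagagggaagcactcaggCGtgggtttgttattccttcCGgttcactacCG
Fanca: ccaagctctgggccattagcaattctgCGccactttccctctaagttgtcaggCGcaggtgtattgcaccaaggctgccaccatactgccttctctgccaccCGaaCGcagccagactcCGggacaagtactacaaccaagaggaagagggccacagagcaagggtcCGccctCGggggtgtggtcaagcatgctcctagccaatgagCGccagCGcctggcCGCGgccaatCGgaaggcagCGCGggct
Both stretches hold 14 CG dinucleotides, a number reached by 29.4% of the 32851 promoters in the table. Promoters were listed for 44 of the 55 genes, as 49 entries, and had a median of 18 CG dinucleotides, from 2 to 33, beside a median of 6 over all promoters. The all-promoter figure includes non-coding genes. On either strand, CCAAT was found in 46.9% of the 49 entries and in 33.8% of all promoters, CGGAAG in 36.7% and 13.6%, and GGGCGG in 57.1% and 32.7%. *Traip* had 1 match to each of the 3, and *Fanca* had 2 to CCAAT and 1 to each of the other two. The listed entry of *Slx4* is not shown, since its bases before the start end as an intron does. No DNA methylation was measured in these libraries, and a match describes letters only.

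No gene of end joining passed the test. *Xrcc5*, which encodes 1 of the Ku subunits that cap broken ends, had 712, 653 and 593 normalized counts in *Ctrl* against 630, 579 and 555 in *Tet iTKO* mESC. *Xrcc6*, for the other subunit, had 474, 530 and 470 against 462, 501 and 526. The groups overlapped in both, and the 95% intervals of the log2 fold change were -0.32 to 0.02 and -0.16 to 0.19. *Prkdc*, the kinase that joins Ku at the ends, had 92, 42 and 62 in *Ctrl* against 76, 73 and 112 in *Tet iTKO* mESC. The log2 fold change, 0.45, did not pass with all 6 lines (limma adjusted p = 0.15) but did without *Ctrl* replicate 1 (0.73, limma adjusted p = 0.029). The ligase *Lig4* and its partner *Xrcc4* had log2 fold changes of 0.00 and -0.02 with 95% intervals of -0.69 to 0.69 and -0.55 to 0.50, so that a change of that size would not have been seen. *Xrcc4* shares exon sequence on the opposite strand with *Tmem167*, with means of 340 in *Ctrl* and 233 in *Tet iTKO* mESC (limma adjusted p = 0.00024). *Xrcc6* does so with *Desi1*, with means of 336 and 419 (limma adjusted p = 0.0099). The part of these overlaps in the values was not tested.

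*Parp1*, the main sensor of single-strand breaks, had 2840, 2841 and 2891 normalized counts in *Ctrl* against 3011, 3119 and 2796 in *Tet iTKO* mESC. It was the most closely measured of the 55 genes, with a 95% interval of -0.04 to 0.16 around a log2 fold change of 0.06, and passed only with quantile normalization (0.19, limma adjusted p = 0.0022). *Parp2* and the scaffold *Xrcc1* had -0.04 and -0.02, with intervals of -0.27 to 0.18 and -0.18 to 0.14. *Xrcc1* passed only with the GC content and length correction, at -0.22 (limma adjusted p = 0.035), a value outside that interval.

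The genes were expressed over a wide range. Per kilobase of their longest annotated transcript, the *Ctrl* mean was 738 normalized counts for *Parp1*, 270 for *Xrcc1*, 255 for *Xrcc5*, 187 for *Chek2* and 149 for *Xrcc6*. At the other end it was 6.05 for *Atr*, 5.43 for *Atm*, 5.17 for *Prkdc* and 2.77 for *Wrn*, which put *Parp1* 266-fold above *Wrn*. The large kinases at the top of the signalling pathway were thus among the lowest per length, and their effectors higher, with *Chek1* at 57.1. The transcripts of *Prkdc*, *Atm* and *Atr* are also long, at 12647, 9819 and 8102 bases, and the part of length in this order was not tested. In the remaining groups the highest levels were those of *Eme1*, at 129, and *Exo1*, at 68.6. *Traip* went from 67.7 to 27.6 per kilobase, whereas *Fanca* went from 38.6 to 64.7 and *Slx4* from 13.4 to 24.0. Transcript models of one length per gene make these levels approximate, since the isoforms used were not measured.

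**Figure D3:**
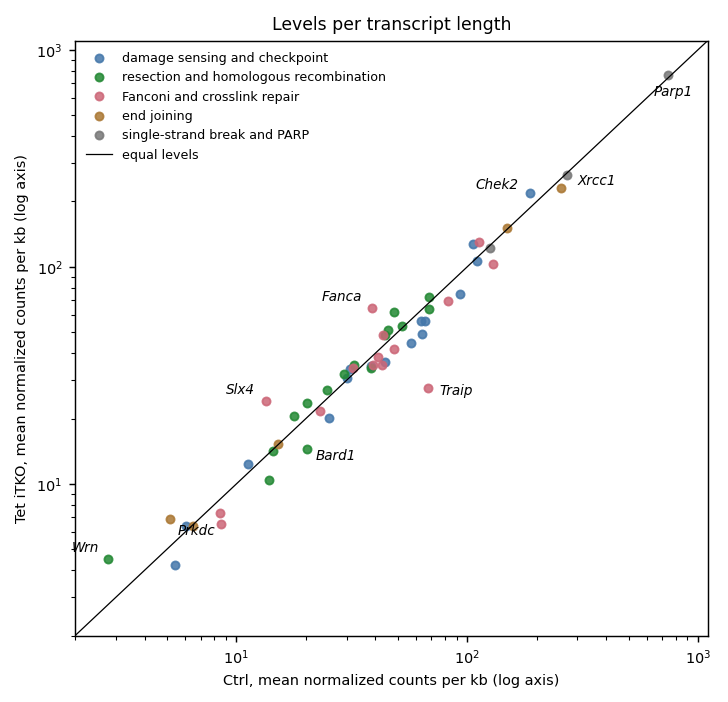
Mean normalized counts per kilobase of transcript in *Tet iTKO* (y axis) against *Ctrl* mESC (x axis), both on log axes, 1 point per gene, coloured by pathway, with a line at equal levels. Points follow the line from *Wrn* at 2.77 to *Parp1* at 738 in *Ctrl*, with *Traip* below it and *Fanca* and *Slx4* above it.

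The changes were also compared after a correction of each library for the GC content and length of transcripts. The 55 genes had a median length of 3944 bases and a median GC content of 46.2%, beside 3352 bases and 50.0% over all genes tested. After the correction 12.5% of all genes rose and 14.0% fell. Among the 55 genes 4 rose and 5 fell, and the median was -0.07, beside 0.01 over all genes. *Chek2*, *Blm*, *Fanca*, *Slx4*, *Eme1* and *Traip* passed again in the same direction. *Traip* had a corrected log2 fold change of -1.40 (limma adjusted p = 2.4e-09), *Fanca* 0.52 (limma adjusted p = 0.00092), *Slx4* 0.57 (limma adjusted p = 0.018) and *Chek2* 0.41 (limma adjusted p = 0.00029). *Chek1*, *Rad1* and *Rad17* no longer passed, with corrected values of -0.21, -0.23 and -0.06, and that of *Rad17*, the gene with a GC content of 36.2%, was closest to 0. In their place *Bard1* (-0.56, limma adjusted p = 0.029), *Rnf8* (-0.37, limma adjusted p = 0.0047) and *Xrcc1* (-0.22, limma adjusted p = 0.035) were lower.

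**Figure D4:**
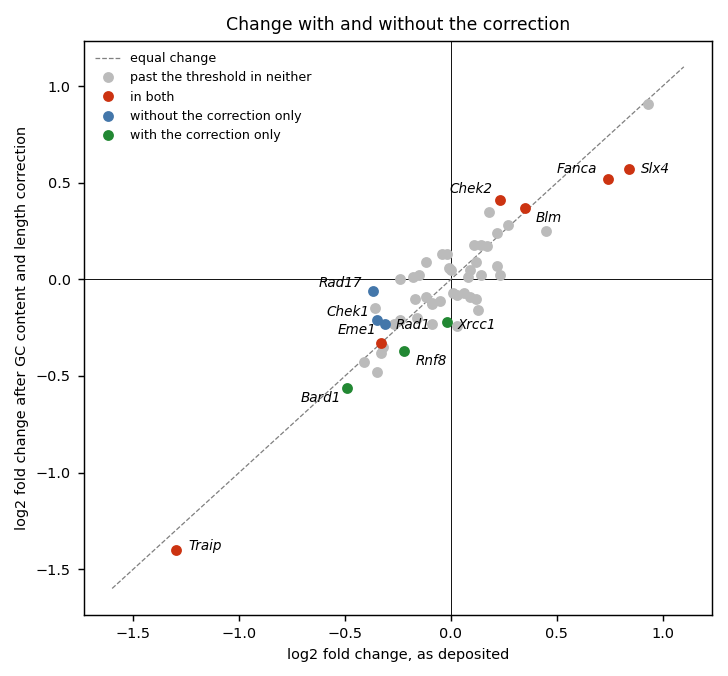
Log2 fold change of each of the 55 genes after the GC content and length correction (y axis) against that without it (x axis), coloured by whether the limma adjusted p was under 0.05 in both, one or neither, with a dashed line at equal change. *Traip* lies at the lower left in both, *Slx4* and *Fanca* at the upper right, and *Rad17* has moved from -0.37 to -0.06.

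Other genes of the same pathways, which are not among the 55, also moved in both directions. Of 48 such genes 46 were tested, and *Fan1* and *Parp3* were under the filter. Of these 46, 3 rose and 9 fell, or 26.1%, beside 34.8% of all genes, with a median log2 fold change of -0.08, and after the correction 4 were higher and 5 lower. *Lig3*, *Clspn* and *Dna2* rose, and *Rpa1*, *Rpa2*, *Rpa3*, *Babam1*, *Usp1*, *Ercc1*, *Aplf*, *Swi5* and *Zswim7* fell. All 3 subunits of RPA, the protein that coats single-stranded DNA and brings ATR to it, were among those that fell. *Rpa3* had 384, 311 and 256 normalized counts in *Ctrl* against 107, 133 and 154 in *Tet iTKO* mESC, with a log2 fold change of -1.26 (SE 0.14, limma adjusted p = 9.1e-09) that was -0.62 after the correction (limma adjusted p = 0.0008). *Clspn*, the adaptor through which ATR activates CHEK1, had 61, 111 and 77 against 132, 126 and 129 and rose by 0.67 (SE 0.19, limma adjusted p = 0.0063).

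Many repair genes are transcribed most in S phase, so a list of 18 S-phase genes was set beside them. Of these 4 rose and 7 fell, or 61.1%, beside 34.8% of all genes tested, with a median of -0.12. After the GC content and length correction the numbers were again 4 higher and 7 lower. *Pcna*, the replication clamp, had 1236, 1253 and 1140 normalized counts in *Ctrl* against 837, 778 and 698 in *Tet iTKO* mESC. *Rrm2*, a subunit of ribonucleotide reductase, had 2992, 3149 and 3183 against 3692, 3592 and 3645. The list thus moved in both directions, and its part in the changes of the repair genes was not tested.

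The 55 genes lie on 18 chromosomes. The median log2 fold change of the genes tested on a chromosome ran from -0.08 to 0.07, and was 0.00 on chromosome 9, which carries *Traip*, 0.02 on chromosome 8, which carries *Fanca*, and -0.02 on chromosome 16, which carries *Slx4*.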

How the data were processed

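RNA of 6 libraries from sorted mESC, 3 *Ctrl* and 3 *Tet iTKO*, was analysed, grouped by the labels. The authors prepared libraries by Smart-Seq2, aligned the reads with STAR, kept unique alignments, counted them per gene with HTSeq 0.7.1 and scaled them with DESeq2 1.26.0 in R 3.5.2, and the submitters' processing notes name the build mm9. The counting used a strand setting, although the library protocol does not mark strand. The deposited values are normalized counts rounded to whole numbers, and were therefore treated as a score and not as read counts. Reads behind them were estimated from the whole numbers that scaling skips or doubles, a method that recovered 20 of 20 simulated size factors within 1%. The number of libraries limits the precision, and intervals treat lines as replicates.

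Symbols, transcript lengths (longest transcript), GC content and exon overlaps came from GENCODE M21 on GRCm38, which paired 20775 of 22380 identifiers with a symbol. It is not the authors' build, so no gene coordinates are given except those of the RefSeq promoter table. Of the 55 genes 25 share exon sequence with another annotated gene, 22 of them on the opposite strand, and 3 of the 9 that passed are among these.

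Genes with a mean of at least 10 were fitted with limma 3.58.1 in R 4.3.3 (lmFit, eBayes with a variance trend) on log2(value + 1), with a pseudocount of 1, and p-values were two-sided and adjusted over all 10524 genes. Fold changes on this scale understate those of low genes. The test was tried on simulated data. The correction subtracted, in each library, a loess fit (span 0.3) of deviations from the gene mean on GC content and log2 length. The alternatives were other pseudocounts, filters and scalings, no variance trend, a fold threshold of 0.5, the correction, a block for the replicate number, and fits without each line in turn. Lines with the same replicate number did not deviate together, with correlations of -0.005 to 0.001. Within a group, libraries differed by 2.59 to 3.46 times the sampling noise. Repeat libraries of the same RNA can also exceed that noise, so these values do not tell lines from repeats. The genes and lists, and the rule for naming genes (those past the threshold, the highest per length in each pathway, and those whose call changes under an alternative), were chosen with earlier results of these data known. Genes close to the threshold, partner genes and ratios were named after their values were seen. Tables and plots were made in Python 3.11.15 (pandas 2.3.3, matplotlib 3.10.9).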

Additional observations from a re-analysis of the deposited data

How the results depend on the processing

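*Traip*, *Fanca* and *Slx4* kept their direction and passed in all 16 alternative fits, *Blm* in 13, *Eme1* in 12, *Chek2* in 9, *Rad17* in 8 and *Chek1* and *Rad1* in 7 each. None of the 9 genes changed direction. Of the 55 genes, 4 were higher and 5 lower. With each line left out, 2 to 4 were higher and 1 to 4 lower, with a median log2 fold change from -0.04 to 0.01. Without a filter 4 genes were higher and 3 lower. With quantile normalization 6 were higher and 3 lower and the median was -0.06. Without the variance trend 2 were higher and 2 lower, and over all genes 1075 were higher and 1217 lower. With a fold threshold of 0.5, 2 were higher and 1 lower, and over all genes 1074 and 833. The median was -0.07 after the GC content and length correction, with or without the replicate block. With the block for the replicate number 4 genes were higher and 6 lower, *Bard1* being added with an adjusted p of 0.048, and over all genes 1762 were higher and 1980 lower. Lines of the same replicate number did not deviate together, which with 3 lines per group cannot show whether they were paired by experiment. The block ended no call. The causes of these shifts were not tested.

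Directions changed only for genes that did not pass in the fit of all 6 lines as deposited. After the GC content and length correction, alone or with the replicate block, these were *Atrip* (-0.10), *Mdc1* (-0.24), *Trp53bp1* (-0.16), *Nbn* (0.01), *Rad51c* (0.06), *Xrcc3* (-0.08), *Exo1* (-0.09), *Fancb* (0.09), *Xrcc4* (0.13), *Xrcc5* (0.02), *Xrcc6* (-0.07), *Parp1* (-0.07) and *Parp2* (0.13). With rescaling by trimmed means of M values it was *Xrcc6* (-0.01), and with quantile normalization *Atr* (-0.06), *Topbp1* (0.03) and *Xrcc1* (0.06). With each line left out, log2 fold changes crossed 0 for *Atr* (-0.02 to 0.31), *Mdc1* (-0.02 to 0.08), *Topbp1* (-0.12 to 0.02), *Rad51c* (-0.08 to 0.09), *Xrcc2* (-0.13 to 0.28), *Xrcc3* (-0.11 to 0.12), *Fancb* (-0.35 to 0.23), *Fancm* (-0.20 to 0.01), *Lig4* (-0.18 to 0.25, with 0.00 in the fit of all lines), *Xrcc4* (-0.18 to 0.15), *Xrcc6* (-0.03 to 0.07), *Parp2* (-0.11 to 0.02) and *Xrcc1* (-0.09 to 0.03). Of the 55 genes, 5 had a mean under 50 normalized counts. Intervals were also wide for genes just above that mean, such as *Rad51c* (-0.51 to 0.48) and *Brip1* (-0.95 to 0.13).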
